A study of Mus musculus with 7 samples.

Results

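The subject is a set of 10 leukocyte integrin subunit genes: the beta subunits Itgb1, Itgb2 and Itgb7 and the alpha subunits Itga4, Itga5, Itga6, Itgal, Itgam, Itgav and Itgae. Its members are the probe sets whose platform annotation names 1 of these genes and no other, which gave 29 of the 45101 probe sets on the array. The tested samples were B cells from the spleens of 3 Eµ-miR-155 transgenic FVB mice (TG), and the controls were B cells from 4 wild-type FVB mice (WT). The transgene expresses miR-155 from the Eµ heavy chain enhancer, which is active in the B lineage, and nothing in the labels gives the age or sex of the mice or the number of founder lines. The B cells were purified by magnetic sorting with a commercial kit, and each mouse was measured on 1 expression array. Values are log2 probe set values made by the authors with GCRMA, with a lowest value of 2.17. Values up to 4 are taken as background. Some probe sets repeat a single higher value on several arrays, such as Itgav 1432296_a_at at 4.57, so a value above 4 does not by itself show detection.

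Integrins are cell surface receptors made of 1 alpha and 1 beta subunit, and a chain reaches the surface only with its partner. They hold leukocytes to other cells and to matrix, and are switched on from inside the cell when talin and kindlin bind the beta tail. In the spleen, the pair of Itgal and Itgb2 (LFA-1) and the pair of Itga4 and Itgb1 (VLA-4) bind ICAM and VCAM adhesion molecules and help to keep B cells in the marginal zone. Itgb7 pairs with Itga4 to bind the gut addressin MAdCAM and with Itgae to bind E-cadherin.

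The transgene's product is the mature miR-155, shown because it is what the transgene was built to express. Its seed, bases 2 to 8, is in capitals (RefSeq, GRCm38.p6, chr16:84714143-84714165, plus strand).
mmu-miR-155-5p: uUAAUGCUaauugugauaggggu
The array does not measure this small RNA. Its host transcript Mir155hg was at 5.41, 5.33 and 6.04 on the TG arrays and at 6.42, 5.60, 5.12 and 5.02 on the WT arrays. The difference of 0.055 ± 0.37 (SE) on the log2 scale did not pass in limma (adjusted p = 0.937). No source used here says whether the transgene carries the sequence this probe set detects, so the level is no check of the genotype.

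Of the 29 integrin probe sets, 17 were above 4 on at least 3 of the 7 arrays and were tested with limma, with p-values adjusted over the 20994 probe sets that met this filter. These 17 came from 8 genes, and each was above 4 on at least 3 WT arrays, so none entered through the TG arrays alone. At an adjusted p under 0.05, 3 were higher in TG B cells (both tested probe sets of Itgb1 and 1 of Itgae), 1 was lower (Itgb7) and 13 did not pass. That is 23.5% of the integrin probe sets, against 9.28% of all probe sets tested. Probe sets of 1 gene are not independent, and the count passing fell to 0 without WT replicate 1, WT replicate 2 or TG replicate 2. By direction the background was 5.63% higher and 3.65% lower. The groups did not overlap for 10 of the 17 (58.8%), against 27.5% of all probe sets tested. Their median log2 change was 0.045, against -0.043 over all probe sets tested, and 9 of the 17 changes were positive. By brightest probe set, 2 of the 8 genes passed, Itgb1 and Itgb7, where the background over 9517 genes was 10.7%, and the groups did not overlap for 5 of the 8, against 29.9%.

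The arrays differed in ways that bear on these values. Xist was at 13.74, 13.73 and 13.93 on the TG arrays and at 13.79 and 13.61 on WT replicates 1 and 2, but at 2.22 and 2.81 on WT replicates 3 and 4, where the Y-linked Eif2s3y was at 9.85 and 11.10, so by these genes those 2 mice were male and the other 5 female. TG replicate 3 stood apart: Pearson's r over the tested probe sets was 0.967 to 0.995 between TG arrays and 0.987 to 0.993 between WT arrays. The T cell gene Cd3d was at 10.70 on TG replicate 3 and at 2.25 and 2.19 on TG replicates 1 and 2. Where leaving out 1 array changes a call or moves an integrin result by much, that value is given beside it.

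B cell markers were high on every array, and most lists of markers of other blood cells had higher sums on the TG arrays. Cd79a, a chain of the B cell receptor, was at 14.54, 14.58 and 14.08 on the TG arrays and at 14.66 to 14.79 on the WT arrays. The summed linear signal of 10 B cell markers was 97660 to 131100 on the TG arrays and 143100 to 150800 on the WT arrays. T cell markers (10 of 13 with a probe set) summed to 213 to 7480 on the TG arrays and 156.8 to 197.4 on the WT arrays. For 14 granulocyte markers the sum was 15760 to 31850 on the TG arrays and 105.5 to 285 on the WT arrays. Of the 7 tested genes 6 were higher, against 8.11% of all genes tested. Ctsg, S100a8 and S100a9 were under 4 on every WT array, and Mpo and Prtn3 were above 4 on WT replicate 4 only. These genes met the filter through their TG values, so the count is not read as a result. The sum was carried mostly by Mpo, Elane, Prtn3 and Ctsg. The rest of the list was not uniform: Mmp8, Mmp9 and Cxcr2 were not above 4 on any TG array. Ltf and Camp were above 4 on TG replicate 1 but not on TG replicates 2 and 3. The granule enzyme genes Mpo and Elane were at 12.84 to 13.93 and 11.43 to 12.56 on the TG arrays, against 2.85 to 6.95 and 4.17 to 5.46 on the WT arrays. In bulk RNA, more cells of a type and more RNA per cell cannot be told apart.

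**Figure D1:**
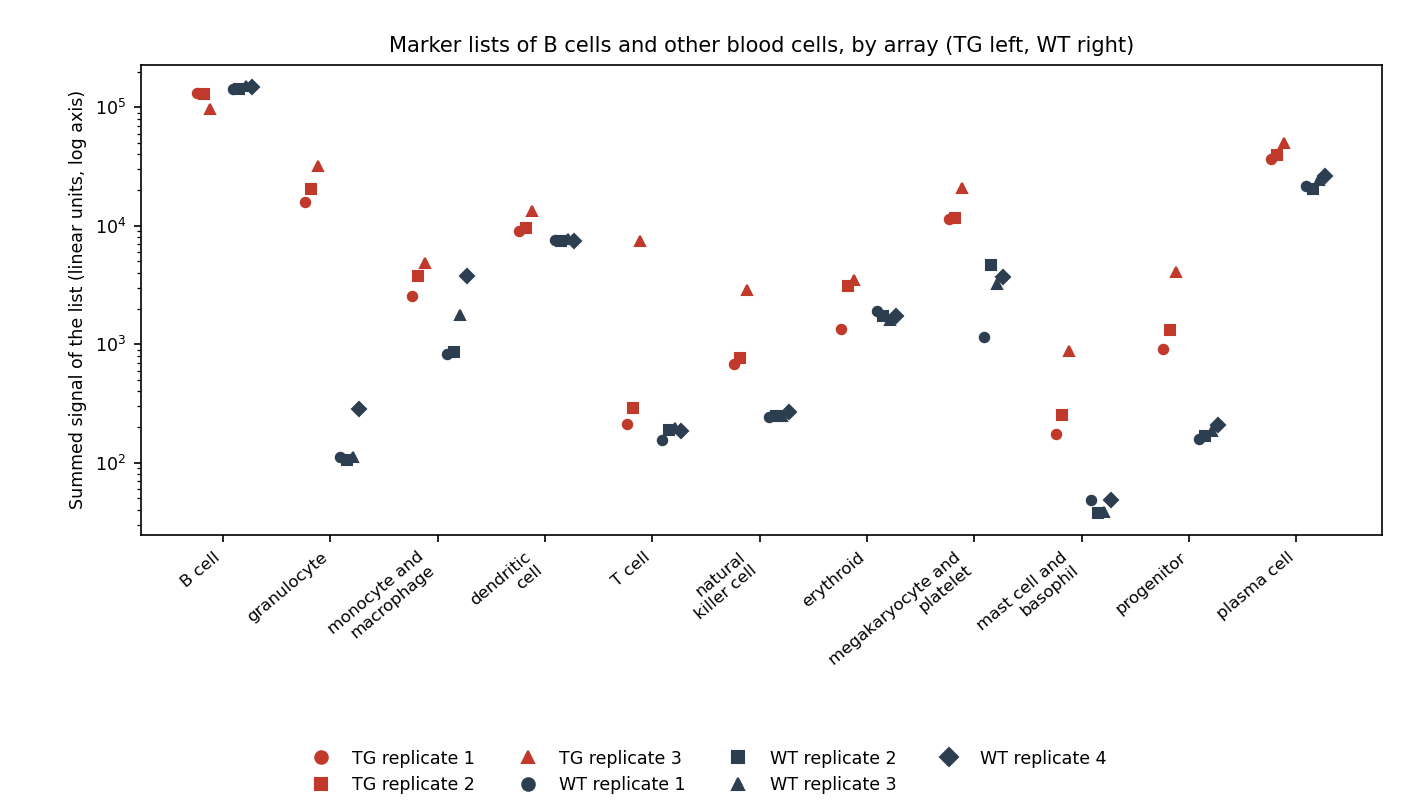
Summed linear signal (log axis) of each marker list on each array, TG arrays left of WT arrays within each list. Granulocyte and progenitor sums lie above all WT arrays on each TG array, while the T cell sum is 7480 on TG replicate 3 and 213 and 286.9 on TG replicates 1 and 2, against 156.8 to 197.4 on the WT arrays.

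For most of these lists the sum was highest on TG replicate 3. Progenitor markers (8 of 9 with a probe set) summed to 914.2, 1310 and 4072 on TG replicates 1, 2 and 3 and to 159.5 to 209.3 on the WT arrays. Platelet and megakaryocyte markers (8 of 10) summed to 11330, 11640 and 20980 on the TG arrays and to 1150, 4629, 3195 and 3678 on the WT arrays. Natural killer cell markers (10 of 11) summed to 687.3 to 2849 on the TG arrays and 242.3 to 266.8 on the WT arrays, and monocyte and macrophage markers (14 of 14) to 2550 to 4860 on the TG arrays and 826 to 3799 on the WT arrays. On the TG arrays the monocyte and macrophage sum was carried mostly by Lyz2, at 10.85 to 11.59. Lyz2 was at 6.17 to 11.45 on the WT arrays and did not pass (limma adjusted p = 0.231). Of the 6 tested genes of this list 2 were higher (Cd68 and Ccr2, the latter under 4 on every WT array). Spic was lower, with a change of -0.99 (limma adjusted p = 0.0163). Over all genes tested 8.11% were higher and 2.56% lower. Dendritic cell markers (10 of 11) summed to 9045 to 13440 on the TG arrays and 7390 to 7714 on the WT arrays, a sum carried by Irf8, which B cells also express, at 13.01 to 13.18 on the TG arrays and 12.78 to 12.86 on the WT arrays. Of the 7 tested dendritic cell genes 4 passed as higher (Flt3, Itgax, Xcr1 and Irf8), against 8.11% of all genes tested. Xcr1, a receptor of cross-presenting dendritic cells, was at 4.77 to 6.01 on the TG arrays and 2.47 to 3.12 on the WT arrays. As it was under 4 on every WT array, it met the filter through the TG arrays alone. Erythroid markers (9 of 11) summed to 1352 to 3514 on the TG arrays and 1602 to 1904 on the WT arrays, a sum carried by Car2, at 10.13 to 11.04 on the TG arrays and 10.61 to 10.86 on the WT arrays. The other 3 tested erythroid genes, Klf1, Car1 and Slc4a1, rose by 4.16, 5.82 and 3.95 (limma adjusted p = 0.0236, 0.00942 and 0.00651). Plasma cell markers (7 of 7) summed to 36320 to 49680 on the TG arrays and 20470 to 26390 on the WT arrays. Of the 6 tested plasma cell genes 1 passed, against 10.7% of all genes tested. It was Jchain, higher by 1.91 (limma adjusted p = 0.0323). Irf4 was lower on every TG array than on any WT array and did not pass (-0.38, limma adjusted p = 0.0719). The mast cell and basophil list (6 of 7) summed to 173.3 to 871.9 on the TG arrays and 37.46 to 48.46 on the WT arrays, while its defining genes Fcer1a and Cpa3 were not above 2.21 on any array. The progenitor gene Cd34 and the natural killer receptor gene Ncr1 were at the lowest value on every WT array, and at 4.59 to 7.44 and 3.01 to 3.86 on the TG arrays. Ncr1 thus stayed under 4, the level taken as background, on every array. The part of these cells in the integrin results was not tested.

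**Figure D2:**
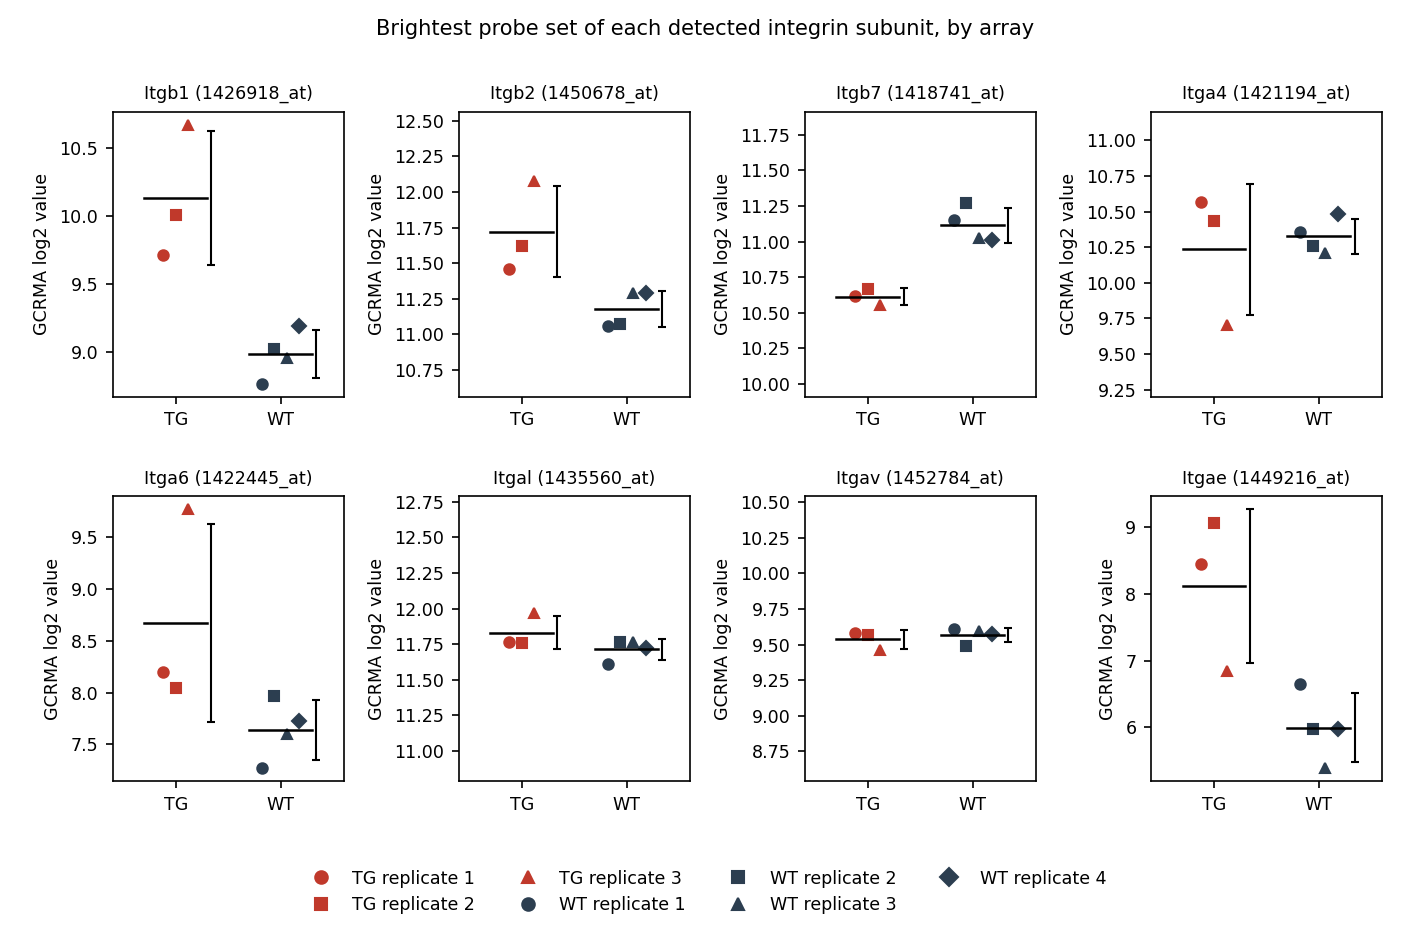
GCRMA log2 value of the brightest probe set of each of the 8 detected subunits on each array, with the group mean (line) and SD (bar); TG left, WT right, and each panel has its own axis. Itgb1 and Itgb2 lie above and Itgb7 lies below every WT array on each TG array, and TG replicate 3 is the highest TG array for Itgb1, Itgb2 and Itga6 and the lowest for Itga4 and Itgae.

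Itgb1, the common beta chain that pairs with Itga4, Itga5, Itga6 and Itgav to bind VCAM, fibronectin and laminin, rose in TG B cells. Its brightest probe set (1426918_at) was at 9.71, 10.004 and 10.67 on the TG arrays and at 8.77, 9.03, 8.96 and 9.19 on the WT arrays. Every TG array was above every WT array, and the TG arrays spread more widely. The means were 10.13 ± 0.49 (SD, n = 3) in TG and 8.99 ± 0.17 (SD, n = 4) in WT, a change of 1.14 ± 0.23 (SE) or 2.21-fold (limma adjusted p = 0.0329). A second probe set (1452545_a_at) read 8.43, 8.67 and 9.45 on the TG arrays and 7.60, 7.69, 7.99 and 7.85 on the WT arrays, again without overlap. It rose by 1.07 ± 0.24 (SE, limma adjusted p = 0.0451). The other 4 Itgb1 probe sets were not tested; 3 stayed near the lowest value and the fourth reached 4.19 on TG replicate 1.

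The rise of Itgb1 kept its sign but not its call when single arrays were left out, and the change of the brightest probe set ran from 0.87 to 1.35. Without TG replicate 3, the array with the T cell genes, the brightest probe set still passed, with a change of 0.87 (limma adjusted p = 0.0286). Without TG replicate 3 and WT replicate 4 together it passed at 0.94 with an adjusted p of 0.0457. The second probe set did not pass there (0.79, adjusted p = 0.0765). The call of the brightest probe set was lost without WT replicates 1, 2, 3 or 4 or TG replicate 2, with adjusted p of 0.0798, 0.0894, 0.0842, 0.0696 and 0.0974 and changes of 1.07 to 1.21. The second probe set lost its call without the same 5 arrays (adjusted p = 0.0873 to 0.117). With Xist as a covariate the change was 1.23 for the brightest probe set (adjusted p = 0.0958) and 1.204 for the second (adjusted p = 0.105). Against WT replicates 1 and 2 alone, of the same sex as the TG mice, the change of the brightest was 1.23 (adjusted p = 0.167, in a comparison in which 15 of all probe sets tested passed).

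Itgb7, the beta chain of the gut homing pair with Itga4, fell. It was at 10.62, 10.67 and 10.55 on the TG arrays and at 11.15, 11.27, 11.03 and 11.01 on the WT arrays. The groups did not overlap, and here the TG arrays lay within a narrow band that included TG replicate 3. The means were 10.61 ± 0.058 (SD, n = 3) in TG and 11.11 ± 0.12 (SD, n = 4) in WT, a change of -0.50 ± 0.076 (SE) or 0.71-fold (limma adjusted p = 0.0193). The call was lost without WT replicate 1 or 2 or TG replicate 2 (adjusted p = 0.0504, 0.0507 and 0.0745), and the change then lay between -0.53 and -0.45. Against WT replicates 1 and 2 alone it was -0.60 (adjusted p = 0.109). With Xist as a covariate Itgb7 was the 1 integrin probe set that passed, at -0.60 (adjusted p = 0.0389). The B cell marker sum was also lower on each TG array than on any WT array, and its part in the fall of Itgb7 was not tested.

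Itgb2, the beta chain of LFA-1 and of the myeloid receptor Mac-1, had values above those of WT on every TG array but did not pass. It was at 11.46, 11.62 and 12.08 on the TG arrays and at 11.06, 11.07, 11.29 and 11.29 on the WT arrays. The difference was 0.54 ± 0.15 (SE, 95% confidence interval 0.18 to 0.91, limma adjusted p = 0.0727). It passed without TG replicate 1, at 0.67 (adjusted p = 0.0484), and was 0.36 without TG replicate 3. The granulocyte sum was likewise highest on TG replicate 3, and its part in Itgb2 was not tested.

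The 2 beta genes that passed moved in opposite directions, and the 250 bases before their RefSeq starts are shown for comparison. A promoter was found in the RefSeq table (GRCm38.p6) for 6 of the 10 genes. The capitals mark the GC box GGGCGG, searched on both strands with overlaps counted; Itgb1 lies at chr8:128685404-128685653 on the plus strand and Itgb7 at chr15:102231936-102232185 on the minus strand.
Itgb1: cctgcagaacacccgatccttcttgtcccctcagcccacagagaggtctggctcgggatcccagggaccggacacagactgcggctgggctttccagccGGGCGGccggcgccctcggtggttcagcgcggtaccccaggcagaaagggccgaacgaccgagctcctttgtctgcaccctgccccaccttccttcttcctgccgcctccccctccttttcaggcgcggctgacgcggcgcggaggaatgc
Itgb7: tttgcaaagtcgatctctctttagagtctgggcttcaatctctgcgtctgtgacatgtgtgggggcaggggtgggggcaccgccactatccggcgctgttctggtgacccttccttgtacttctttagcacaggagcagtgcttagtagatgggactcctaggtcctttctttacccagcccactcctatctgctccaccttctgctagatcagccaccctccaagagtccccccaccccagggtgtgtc
The Itgb1 window held 1 GC box and 68.0% G and C, and the Itgb7 window held no GC box and 56.0% G and C. Among the other members with a promoter, the windows of Itga4, Itga5 and Itgam held 1, 2 and 1 GC boxes. That of Itgav held none, so the GC box did not set Itgb1 apart. Of all 32851 promoter windows of this length in the table, 32.7% held the GC box. The ETS core GGAA was found at 4 places in the Itgb1 window and at 1 place in the Itgb7 window, and 93.4% of all windows held it. Neither window held CCAAT (33.8% of all windows) or TATAAA (12.4% of all windows).

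Among the alpha subunits, Itgae (CD103), the partner of Itgb7 that binds E-cadherin and marks subsets of T cells and dendritic cells, differed most among the members. Its brighter probe set (1449216_at) was at 8.45, 9.07 and 6.84 on the TG arrays and at 6.66, 5.97, 5.39 and 5.97 on the WT arrays. The groups did not overlap, but TG replicate 3 lay close to WT replicate 1. The difference was 2.12 ± 0.55 (SE, 95% confidence interval 0.81 to 3.44) and did not pass (limma adjusted p = 0.0605). The other probe set (1447541_s_at), whose suffix marks probes that may match more than 1 transcript, read 6.43, 7.33 and 5.77 on the TG arrays and 5.04, 5.04, 3.65 and 4.17 on the WT arrays. It rose by 2.03 ± 0.48 (SE, limma adjusted p = 0.0489), with WT replicate 3 below background.

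Itgae was lowest, among the TG arrays, on TG replicate 3. Without that array the brighter probe set rose by 2.76 (limma adjusted p = 0.0179). Of the T cell markers on TG replicates 1 and 2, Cd3d and Cd3e were between 2.17 and 2.25, while Cd3g was at 4.02 and 4.55, against 2.17 on every WT array. Cd8a was at 5.82 and 6.86 on those 2 TG arrays, against 5.64 to 5.75 on the WT arrays, and Lat was at 6.65 and 6.76, against 5.82 to 6.60 on the WT arrays. The dendritic cell genes Flt3 and Xcr1 were also higher on each TG array than on any WT array. The part of T cells and dendritic cells in Itgae was not tested. The call of the second probe set was kept without TG replicate 3 and lost without any other single array (adjusted p = 0.0791 to 0.133). Against WT replicates 1 and 2 alone the brighter probe set was 1.81 higher (adjusted p = 0.278) and the other 1.47 higher (adjusted p = 0.215).

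Itga4, which pairs with both Itgb1 and Itgb7, did not pass with any of its 4 tested probe sets. The brightest (1421194_at) was at 10.57, 10.43 and 9.71 on the TG arrays and at 10.35, 10.26, 10.21 and 10.49 on the WT arrays, so TG replicate 3 lay below and TG replicate 1 above all WT arrays. The difference was -0.092 (95% confidence interval -0.59 to 0.40, limma adjusted p = 0.785), and without TG replicate 3 it was 0.17. On the other 3 probe sets the difference was -0.48, -0.51 and -0.13 (adjusted p = 0.206, 0.170 and 0.583), and without TG replicate 3 it was -0.19, -0.24 and 0.062. TG replicate 3 was the lowest of all 7 arrays on each of the 4. On 1456498_at and 1436037_at, however, every TG array lay below every WT array. The first was at 9.56, 9.55 and 8.66 on the TG arrays and at 9.57 to 9.84 on the WT arrays. The second was at 8.67, 8.51 and 7.76 on the TG arrays and at 8.70 to 8.97 on the WT arrays. The pair comparisons below use the brightest probe set, on which the groups overlap.

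Itga6, which pairs with Itgb1 to bind laminin, was higher without passing. Its brightest probe set (1422445_at) was at 8.20, 8.05 and 9.77 on the TG arrays and at 7.27, 7.96, 7.60 and 7.72 on the WT arrays. TG replicate 3 stood more than 1 log2 unit above the other TG arrays, and TG replicate 2 was close to WT replicate 2. The difference was 1.03 ± 0.43 (SE, limma adjusted p = 0.165), and 0.48 without TG replicate 3. The second probe set (1422444_at) differed by 1.51 ± 0.50 (SE, adjusted p = 0.108), and by 0.97 without TG replicate 3. Itga6 is also expressed by platelets and blood progenitors, whose marker sums were highest on TG replicate 3; their part in Itga6 was not tested.

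Itgal and Itgav differed little between the groups. Itgal, the LFA-1 alpha chain, was at 11.76, 11.76 and 11.97 on the TG arrays and at 11.61, 11.77, 11.76 and 11.72 on the WT arrays (1435560_at). The difference was 0.12 (95% confidence interval -0.051 to 0.28, limma adjusted p = 0.304), and 0.044 on the other probe set (-0.21 to 0.30, adjusted p = 0.800). Without TG replicate 3 the first was 0.048, and without WT replicate 4 the second was -0.044. Itgav, which pairs with several beta chains to bind vitronectin and fibronectin, was at 9.58, 9.57 and 9.46 on the TG arrays and at 9.61, 9.49, 9.60 and 9.57 on the WT arrays (1452784_at). The difference was -0.030 (95% confidence interval -0.16 to 0.10, adjusted p = 0.742). Both intervals exclude a change as large as that fitted for Itgb1. The 2 dimmer Itgav probe sets differed by -0.18 and -0.033 (adjusted p = 0.286 and 0.712), and by -0.072 and -0.018 without TG replicate 3.

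Itgam and Itga5 were not above background on any array. Itgam, the alpha chain of Mac-1 and a surface marker of granulocytes and macrophages, has 1 probe set here, at 2.47, 2.61 and 3.33 on the TG arrays and at 2.45, 2.44, 2.47 and 2.47 on the WT arrays. It stayed under 4 on the same TG arrays on which the granulocyte genes Mpo and Elane were above 11. Of the same marker list, Mmp8, Mmp9 and Cxcr2 were also under 4 on each TG array. Whether this probe set reports the Itgam transcript cannot be read from these arrays. Itga5, the alpha chain of the fibronectin receptor, did not exceed 2.61 on any array with any of its 4 probe sets. In the RefSeq order of protein-coding genes Itgam is followed by Itgax and then Itgad, and of these Itgax was measured well above background, as given with the other subunits.

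**Figure D3:**
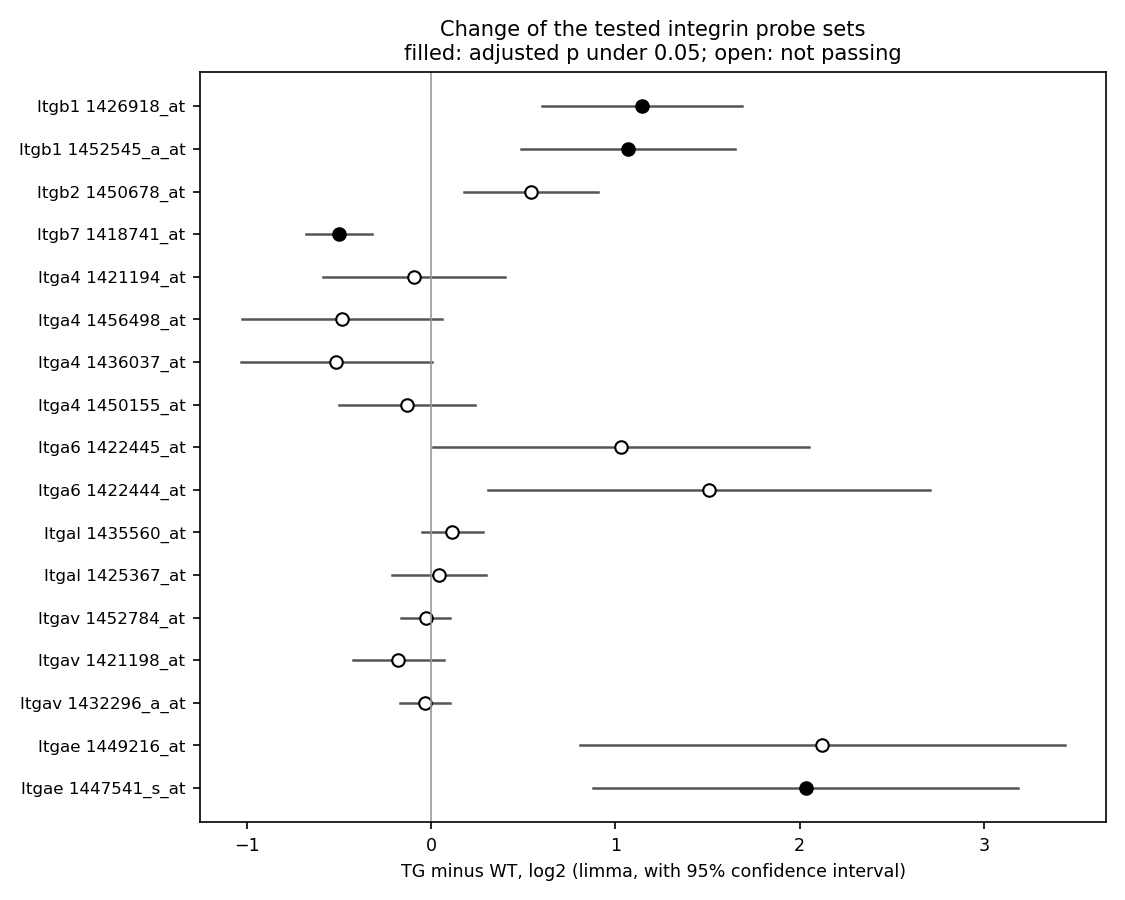
TG minus WT change on the log2 scale (point) with limma's 95% confidence interval (line) for the 17 tested integrin probe sets, filled where the adjusted p is under 0.05. Filled points are both Itgb1 probe sets and 1447541_s_at of Itgae on the right and Itgb7 on the left, and the intervals of Itgal, Itgav and Itga4 include 0.

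Because the subunits act in pairs, the change of each alpha subunit was set against that of its beta partner within each array, using the brightest probe set of each. Of 8 pairs, 6 could be compared; those with Itgam and Itga5 could not. The difference alpha minus beta was tested between TG and WT with a two-sided exact permutation test over all 35 splits of the arrays, whose smallest p is 0.0286, and adjusted over the 6 pairs. GCRMA values of different probe sets respond differently to the same RNA, so only the change of the difference between groups is read. The 4 pairs that passed all sat at the smallest p, and their adjusted p depends on reaching it together, so none could pass alone. Itga4 minus Itgb1 and Itgav minus Itgb1 share the Itgb1 values, so they are not separate from the rise of Itgb1.

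The alpha partners of Itgb1 did not keep up with it in 2 of 3 pairs. Itga4 minus Itgb1 was 0.85, 0.43 and -0.96 on the TG arrays and 1.58, 1.23, 1.25 and 1.29 on the WT arrays, lower by 1.24 in TG (exact adjusted p = 0.0429) and by 0.70 without TG replicate 3. Itgav minus Itgb1 was -0.13, -0.44 and -1.21 on the TG arrays and 0.84, 0.47, 0.64 and 0.38 on the WT arrays, lower by 1.17 (exact adjusted p = 0.0429). In both pairs every TG array lay below every WT array. Itga6 minus Itgb1 overlapped between the groups, with a change of -0.11 (exact adjusted p = 0.714; 95% interval from limma -0.75 to 0.53).

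For Itgb7 the 2 alpha partners differed. Itgae minus Itgb7 was -2.17, -1.60 and -3.71 on the TG arrays and -4.49, -5.30, -5.64 and -5.04 on the WT arrays, higher by 2.62 in TG (exact adjusted p = 0.0429). Itga4 minus Itgb7 was -0.052, -0.24 and -0.85 on the TG arrays and -0.80, -1.01, -0.82 and -0.52 on the WT arrays; it overlapped, with a change of 0.41 (exact adjusted p = 0.240). Without TG replicate 3 that change was 0.64, and it then passed in limma on the differences (adjusted p = 0.00643). Itgal minus Itgb2 was 0.30, 0.14 and -0.11 on the TG arrays and 0.55, 0.69, 0.47 and 0.43 on the WT arrays, lower by 0.43 (exact adjusted p = 0.0429). With limma on the same differences this last pair did not pass (adjusted p = 0.0996), while the other 3 did. With the mean of all tested probe sets of each subunit, 0 of 6 pairs passed after adjustment in the exact test and 3 had an unadjusted p under 0.05. Leaving out any array puts the smallest possible exact p at 0.0667 or 0.100, so no pair could pass that test; the 4 differences kept their sign. In limma, Itgae minus Itgb7 and Itgav minus Itgb1 passed without each array in turn, and Itga4 minus Itgb1 did not pass without WT replicates 1, 2 or 4 (adjusted p = 0.0609, 0.0580 and 0.0587). Itga6 minus Itgb1 was -0.39 without TG replicate 3 and 0.14 without TG replicate 2.

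**Figure D4:**
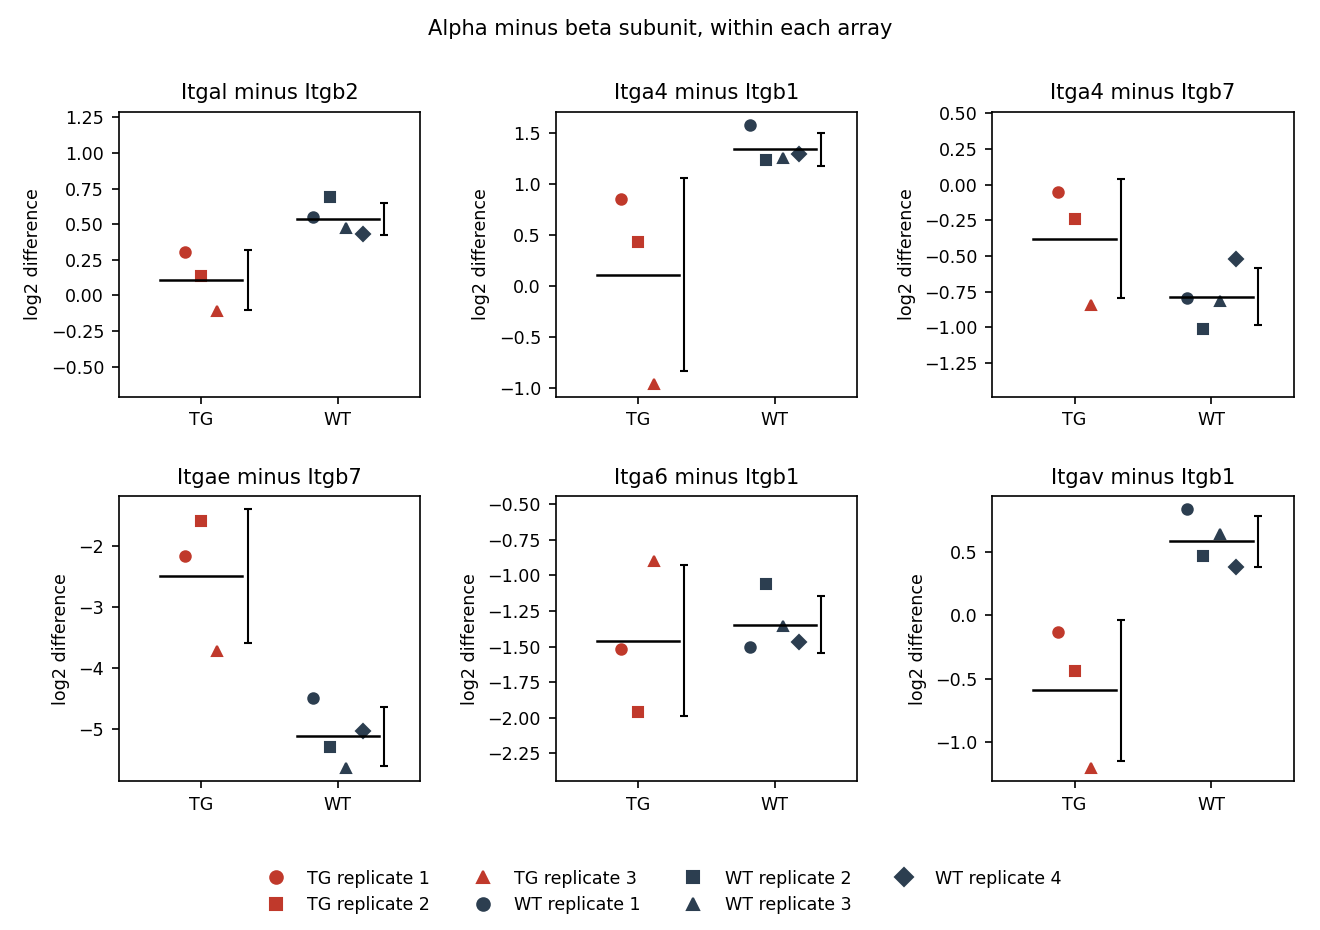
Alpha minus beta log2 difference within each array for the 6 comparable pairs, with group mean (line) and SD (bar); TG left, WT right, each panel with its own axis. Itgal minus Itgb2, Itga4 minus Itgb1 and Itgav minus Itgb1 lie lower and Itgae minus Itgb7 higher on every TG array, while the groups overlap for Itga4 minus Itgb7 and Itga6 minus Itgb1.

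The other integrin subunits and the genes that act with integrins were taken from 4 lists. Of 111 listed genes, 65 were tested, and 6 were higher and 1 lower in TG, which is 10.8% against 10.7% of all genes tested by brightest probe set. This share is near that of all genes. The background by direction was 8.11% higher and 2.56% lower.

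Of 16 other subunits 4 were tested, and Itgax (CD11c), the dendritic cell and macrophage partner of Itgb2, was the 1 that rose. It was at 8.29, 9.01 and 10.58 on the TG arrays and at 6.68, 5.49, 5.59 and 6.14 on the WT arrays, without overlap. The change was 3.32 ± 0.57 (SE, limma adjusted p = 0.0244). The platelet subunit Itga2b was at 9.004, 9.15 and 10.21 on the TG arrays and at 4.66, 7.84, 7.27 and 7.44 on the WT arrays and did not pass (2.65, adjusted p = 0.0840). WT replicate 1 was the lowest array for Itga2b, as it was for the platelet chemokine genes Pf4 and Ppbp, at 7.79 and 8.59 against 9.49 to 10.14 and 10.39 to 10.91 on the other WT arrays. Itgb5 and Itgb3, the remaining 2, differed by 0.99 and 0.44 (adjusted p = 0.105 and 0.423). The median change of the 4 was 1.82.

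Of 33 ligand genes 8 were tested, with 1 higher, 1 lower and a median change of -0.052. Icam2, a counter-receptor of LFA-1 made by B cells themselves, was at 11.12, 11.02 and 10.48 on the TG arrays and at 11.82, 11.49, 11.51 and 11.53 on the WT arrays. It fell by 0.71 ± 0.17 on the log2 scale (SE, limma adjusted p = 0.0486). Adam8, a membrane metalloprotease of granulocytes with an integrin-binding domain, was at 7.53, 8.15 and 7.79 on the TG arrays and at 5.90, 4.90, 4.39 and 5.29 on the WT arrays. It rose by 2.70 ± 0.36 (SE, adjusted p = 0.0148). Icam1, also a counter-receptor of LFA-1, had values above WT on every TG array and did not pass (0.33, adjusted p = 0.0535).

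Of 33 activation and adaptor genes 30 were tested, with a median change of -0.11, and 1 passed. Skap2, a cytosolic adaptor of integrin activation in myeloid cells, was at 11.27, 11.38 and 11.87 on the TG arrays and at 10.54, 10.67, 10.75 and 10.65 on the WT arrays, and rose by 0.86 ± 0.14 (SE, limma adjusted p = 0.0237). The core activators differed little: Tln1 (talin) by 0.13, Fermt3, the leukocyte kindlin, by 0.093 and Rap1b by -0.014 (adjusted p = 0.351, 0.517 and 0.901). Of these 30 genes, 5 higher and 6 lower had an unadjusted p under 0.05. The share of all genes at that level is not given here, so these counts are not read as a result about the list.

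Of 29 genes that signal from bound integrins 23 were tested, with a median change of 0.13, and 3 rose. Actn1, the cytoskeletal linker alpha-actinin, was at 8.79, 9.13 and 10.56 on the TG arrays and at 6.15, 6.69, 5.82 and 6.60 on the WT arrays, a change of 3.18 ± 0.45 (SE, limma adjusted p = 0.0164). Parvb, which binds integrin-linked kinase, was at 8.60, 8.95 and 9.95 on the TG arrays and at 4.29, 7.09, 6.59 and 6.59 on the WT arrays, a change of 3.03 ± 0.71 (SE, adjusted p = 0.0473). Zyx (zyxin) was at 9.89, 10.12 and 10.83 on the TG arrays and at 8.50, 9.19, 9.38 and 9.21 on the WT arrays, a change of 1.21 ± 0.29 (SE, adjusted p = 0.0489). For Parvb and Zyx, as for Itga2b, WT replicate 1 was the lowest array, and its platelet marker sum was 1150 against 3195 to 4629 on the other WT arrays. Their part in these changes was not tested.

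The calls of all 7 genes were lost without WT replicate 2 or TG replicate 2, with limma adjusted p of 0.0589 to 0.112 and 0.0711 to 0.125. Those of Parvb, Zyx and Icam2 were also lost without TG replicate 3 (0.110, 0.0886 and 0.0512), that of Parvb without TG replicate 1 (0.0634) and those of Itgax, Icam2, Skap2, Parvb and Zyx without WT replicate 3 or 4 (0.0583 to 0.102). Without WT replicate 1, Icam2, Skap2 and Zyx were lost (0.104, 0.0614 and 0.0839). All 7 calls were also lost with Xist as a covariate (0.0628 to 0.1197) and against WT replicates 1 and 2 alone (0.117 to 0.200). The 1 related gene that passed in both of these was Fn1 (fibronectin), named after its values were seen. Its changes there were 5.86 each (limma adjusted p = 0.0393 and 0.0440). It was at 8.33, 9.06 and 9.13 on the TG arrays and at 2.98, 2.98, 5.56 and 7.63 on the WT arrays. WT replicates 1 and 2 held the same value, below background and with no spread, so the change against them is a distance from background. With all arrays Fn1 did not pass (4.05, limma adjusted p = 0.0773).

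Each tested subunit was also set against all 9516 other genes for the gene whose values over the 7 arrays followed it most closely. This is a description over arrays that share the group difference. Blvra (biliverdin reductase) followed Itgb1 with a Pearson's r of 0.999, Cmtm7 followed Itgb2 (0.998) and Tmem126b followed Itgb7 (0.992). Ipo8 followed Itga4 (0.989), Stx11 Itga6 (0.994), Cep76 Itgal (0.997), Arih2 Itgav (0.982) and Cryl1 Itgae (0.991). These 8 are different genes.

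**Figure D5:**
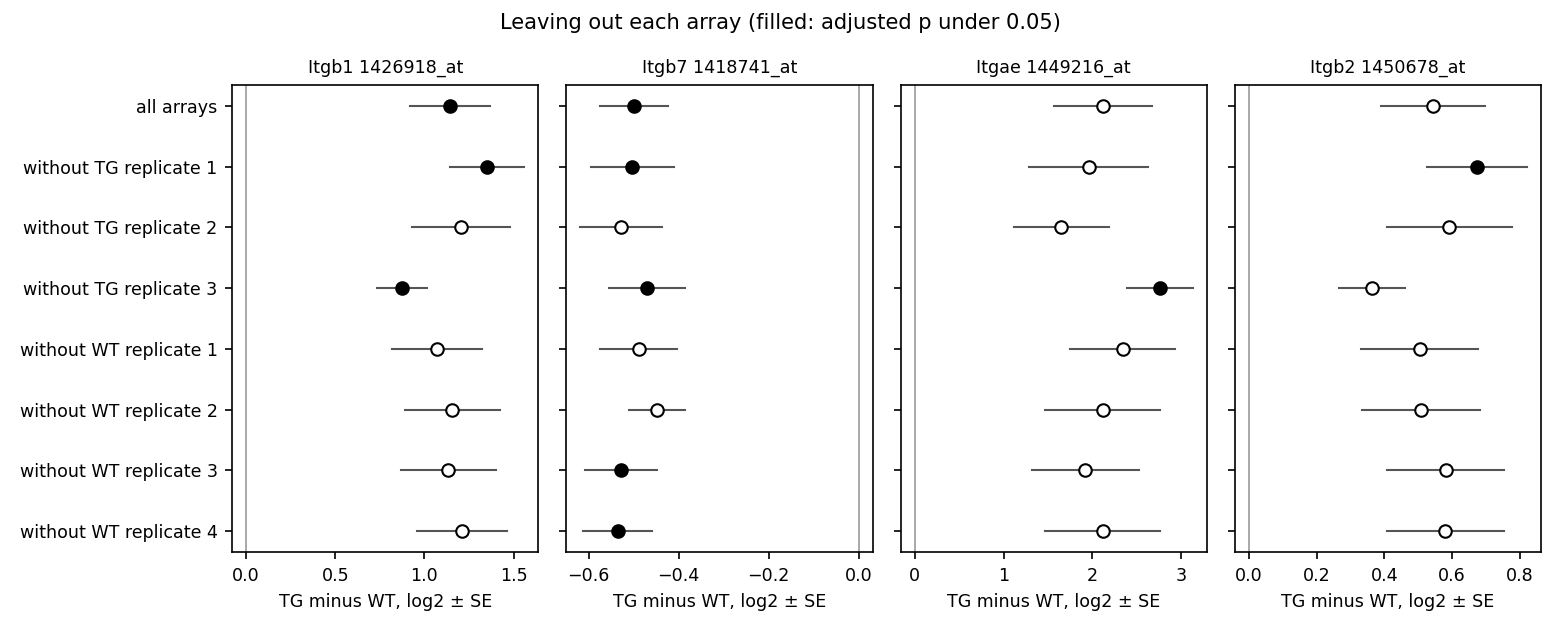
TG minus WT change (point, with SE) of Itgb1, Itgb7, Itgae and Itgb2 with all arrays and without each array in turn, filled where the limma adjusted p is under 0.05. The sign stays the same in all panels; Itgae is largest without TG replicate 3 (2.76), and Itgb1 (0.87) and Itgb2 (0.36) are smallest without it.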

How the data were processed

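Gene expression was measured on 7 arrays, 3 TG and 4 WT; the series' design text counts mice. The deposited log2 values come from GCRMA run by the authors (submitters' processing notes, per the labels; no version is named). GCRMA leaves 35.5% to 37.0% of an array's values at the lowest value of 2.17, which compresses the changes of dim genes. Of each array's values, 46.0% to 47.9% were above 4. Batches could not be tested.

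Genes were named from the platform annotation, with symbols looked up in RefSeq (GRCm38.p6). Probe sets above 4 on at least 3 arrays were fitted in R 4.3.3 with limma 3.58.1 (lmFit, eBayes with an intensity trend), with Benjamini-Hochberg adjustment over the 20994 tested and a threshold of 0.05. A gene is represented by its brightest tested probe set. The procedure was tested on simulated data. Alternatives changed the filter, floor, normalization, variance model, weights, probe set choice and arrays used.

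The members and lists were chosen with earlier results of these data known. The text names all 10 members, up to 6 passing genes per direction of each integrin-related list, the first markers of marker lists, the gene most correlated with each member, and sex-linked genes; related genes that did not pass and some marker genes were picked after their values were seen.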

Additional observations from a re-analysis of the deposited data

Results flagged for a closer look

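Of 41 sets of 4 WT values checked, 3 had 1 array far from the other 3, where chance gives about 1 in 20. The dim Itgav probe set 1432296_a_at was at 4.64 on WT replicate 2 and at 4.57 on the other 3 WT arrays (ratio 1). Those 3 arrays and TG replicates 1 and 2 held exactly the same value. The ratio of 1 therefore follows from ties, to which the rate of 1 in 20 does not apply. Icam2 was at 11.82 on WT replicate 1 and at 11.49 to 11.53 on the others (ratio 0.886). The summed granulocyte marker signal was 285 on WT replicate 4 and 105.5 to 112.6 on the others (ratio 0.960).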

How the results depend on the processing

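With all arrays, 4 integrin probe sets, 7 related genes and 4 partner differences passed. With no filter 0 of 29 integrin probe sets and 0 of 102 related genes passed in limma (7 and 28 at an unadjusted p under 0.05). For the unadjusted counts, here and below, no share over all probe sets is given, so they are not read as a result about these genes. With a replicate block on numbers 1 to 3, which drops WT replicate 4, the counts were 0 and 0 (6 and 21 unadjusted), and 4 of all probe sets passed. Deviations of same-numbered arrays correlated at -0.088, -0.14 and -0.26, and for 0 of the 3 numbers did both arrays correlate best with each other. That shows no pairing by number, but with so few arrays it cannot exclude one, and the labels do not say. With Xist as a covariate 1 and 1 passed, against WT replicates 1 and 2 alone 0 and 1 (5 integrin probe sets unadjusted), and without TG replicate 3 and WT replicate 4 together 1 and 3 (Skap2, Actn1 and Fyb). Array weights gave 26 related genes, no intensity trend 4 and the mean of all probe sets of a gene 13. Without single arrays the counts ran from 0 to 5 and from 0 to 8, and that over all probe sets from 138 to 2149, against 1949. The partner count was 0 with the mean of all probe sets of a subunit. With limma on these differences, leaving out single arrays, an alternative chosen after seeing the data, gave 2 to 4, against 3. The causes were not tested.

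The signs of Itgb1, Itgb2, Itgb7, Itga6 and Itgae were kept in all 19 alternatives. Signs turned for features that did not pass. With array weights, and without TG replicate 3 and WT replicate 4, Itga4 1421194_at was 0.098 and 0.22, Itga4 1450155_at 0.078 and 0.083 and Itgav 1452784_at 0.018 and 0.010. Without single arrays they ran from -0.26 to 0.17, from -0.24 to 0.062 and from -0.055 to 0.0079. Itgal 1425367_at was -0.044 with the replicate block, -0.051 with Xist, -0.054 against WT replicates 1 and 2 alone, -0.046 without TG replicate 3 and WT replicate 4, and -0.044 to 0.094 without single arrays. Itga6 minus Itgb1 was 0.16 with the mean of all probe sets, and -0.39 to 0.14 without single arrays.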
